A study of Mus musculus with 6 samples.

Results

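The 9 genes described here carry the type I interferon signal from the cell surface to the nucleus or switch on interferon genes: the receptor chains Ifnar1 and Ifnar2, the receptor-bound kinases Jak1 and Tyk2, the transcription factor subunits Stat2 and Irf9, and the interferon regulatory factors Irf7, Irf3 and Irf1. They were measured in total RNA from the cardiac ventricles of female C57BL/6N mice aged 21 weeks, on 1-colour (Cy3) Agilent arrays with 1 sample per array. In 1 group sleep had been interrupted repeatedly over 5 weeks (sleep fragmentation, 3 arrays), and in the other the mice had not been disturbed (control, 3 arrays). No transgene, deletion or drug is named for either group, and the labels do not say whether each sample was another animal, so the p-values reflect the variation among the samples alone, possibly technical. The members were every probe whose RefSeq accession belongs to 1 of the 9 symbols. The 9 genes, of 20659 named genes on the array, had 12 probes. Of these, 10 probes, covering all 9 genes, had every array of 1 or both groups well above background and were tested.

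Type I interferons bind a receptor made of the Ifnar1 and Ifnar2 chains. The kinase Tyk2 sits on Ifnar1 and Jak1 on Ifnar2, and once active they phosphorylate STAT proteins. Stat2 then joins Irf9, which binds DNA, and a further STAT protein to form ISGF3, the complex that binds the interferon-stimulated response element (ISRE) in the promoters of antiviral genes. Irf3 and Irf7 act a step earlier, in cells that sense viral nucleic acid, where they switch on the interferon genes themselves. Irf1 is induced by interferon gamma through a STAT-binding element called GAS, and it activates genes of antigen presentation. Several of these components, among them Stat2, Irf9, Irf7 and Irf1, are also targets of interferon.

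The promoters of the genes that the results turn on are shown because they hold, or lack, the elements named above. The sequences are the 250 bases before the transcription start in RefSeq's GRCm38.p6 annotation, 5′ to 3′ on the + strand, with matches to a searched motif in capitals. For Stat2 (chr10:128270248-128270497) the capitals mark an ISRE core read from the other strand. For Irf9 (chr14:55603735-55603984, the first of its 2 annotated windows) no motif matched. For Irf1 (chr11:53769764-53770013, the first of 2) the capitals mark a GAS motif.
Stat2: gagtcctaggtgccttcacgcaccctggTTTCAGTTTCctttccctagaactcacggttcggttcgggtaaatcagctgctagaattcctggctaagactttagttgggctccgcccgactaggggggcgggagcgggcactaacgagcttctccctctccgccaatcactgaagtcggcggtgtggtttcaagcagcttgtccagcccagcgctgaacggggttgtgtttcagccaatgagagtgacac
Irf9: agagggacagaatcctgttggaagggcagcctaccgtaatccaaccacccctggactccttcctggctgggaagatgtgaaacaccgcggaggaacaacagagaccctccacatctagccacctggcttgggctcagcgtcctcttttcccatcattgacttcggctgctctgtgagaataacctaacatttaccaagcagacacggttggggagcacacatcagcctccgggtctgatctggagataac
Irf1: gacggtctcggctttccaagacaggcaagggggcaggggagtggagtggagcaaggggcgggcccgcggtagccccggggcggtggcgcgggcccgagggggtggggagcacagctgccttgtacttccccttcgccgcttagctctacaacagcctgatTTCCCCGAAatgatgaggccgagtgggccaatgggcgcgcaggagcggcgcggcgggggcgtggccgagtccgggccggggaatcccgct

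All 11 annotated promoter windows of the 9 genes, each 300 bases long (250 before and 50 after the start), were searched on both strands. The ISRE core (GAAA, any 2 bases, GAAA) was found in 1 of them, that of Stat2, from 222 to 213 bases before the start, and in 3.44% of all 32851 windows. The GAS motif TTCNNNGAA was found in 3 windows, those of Irf1 (90 to 82 bases before the start), Ifnar2 and Ifnar1, and in 8.30% of all windows. The E-box CACGTG was in 0 of the 11 and in 7.15% of all windows. The ISRE core and the GAS motif were both present in 149 of all windows, and no window of the 9 genes held both. These are matches of letters in a short window, and binding was not measured.

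Irf9 and Stat2, the DNA-binding and STAT subunits of ISGF3, were lower in the sleep fragmented hearts, each by about the same amount. Irf9 was 2.12-fold lower and Stat2 1.94-fold lower, and for both genes the 3 sleep fragmented arrays were all below the 3 controls. That order was shared by 3.97% of all 14550 genes tested. The receptor chains, the kinases and the factors Irf7, Irf3 and Irf1 had log2 fold changes between -0.28 and 0.33. None of the 9 genes passed the test over all probes. By limma with Benjamini-Hochberg adjustment 0 of 25221 probes (0.0%) had an adjusted p under 0.05, with 735 at an unadjusted p under 0.05 and a smallest adjusted p of 0.552. Over the same probes 3 passed with normexp background correction, 4 with the replicate number as a block and 53 with array weights.

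Because nothing passed, a second rule served as a description: a difference of 1.5-fold or more with a limma p under 0.05 before adjustment. It was met by Irf9 and Stat2, both lower, and by 0 of the 9 genes in the higher direction. Of all 14550 genes tested, 0.729% met it as lower, 1.22% as higher and 1.95% in either direction. Irf9 and Stat2 stood at ranks 12 and 15 by p among these genes. The same 2 genes met the rule in each of the 16 other settings tried, including each of the 6 arrays left out in turn. The groups were scanned separately, sleep fragmented arrays in scan 1 and controls in scan 2, so scan and group cannot be told apart for any difference given here.

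**Figure D1:**
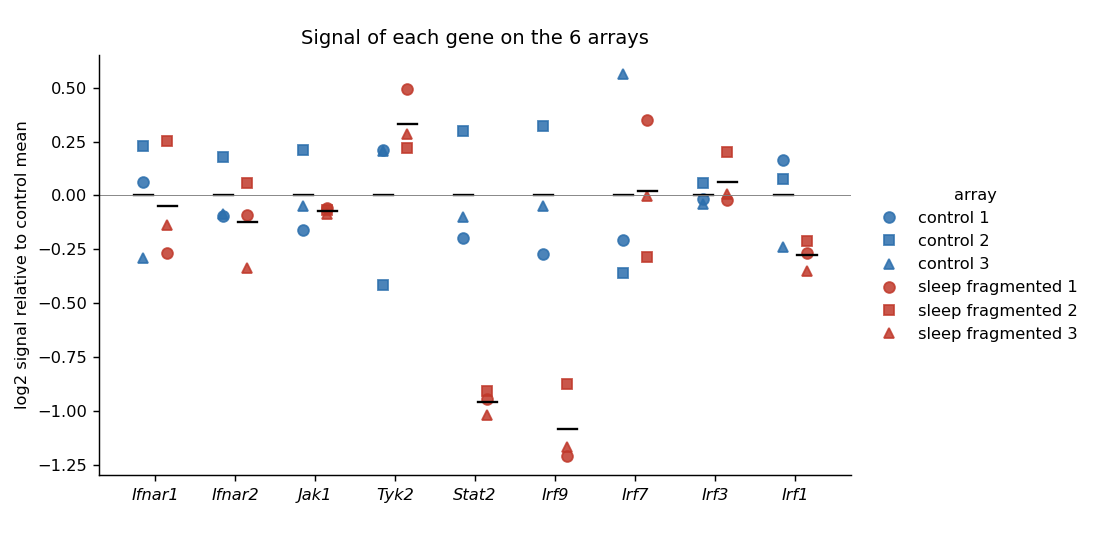
Log2 signal of the 9 genes on the 6 arrays, each gene relative to its own control mean (vertical axis, log2 units); blue symbols are control arrays, red symbols sleep fragmented arrays, symbol shapes mark the replicate number and bars the group means. For Stat2 and Irf9 the 3 red symbols lie below all blue ones, for Tyk2 they lie just above them, and for the other genes the groups overlap.

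Irf9 gives ISGF3 its hold on the ISRE. Its processed signal, divided by the array's own 75th percentile of signal, was 1.64, 2.07 and 1.69 on the sleep fragmented arrays and 3.14, 4.73 and 3.66 on the control arrays. The highest sleep fragmented array thus stayed below the lowest control, and the controls were spread more widely, with control replicate 2 the highest. The means were 1.80 ± 0.233 and 3.85 ± 0.810 (SD, n = 3 each). The log2 fold change was -1.08 ± 0.21 (SE; 95% interval -1.56 to -0.61; limma adjusted p = 0.855).

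Stat2 is the STAT protein particular to interferon receptor signalling, and its carboxy end carries the activating part of ISGF3. Its signal was 3.13, 3.21 and 2.98 times the 75th percentile on the sleep fragmented arrays and 5.26, 7.42 and 5.62 times on the controls. The sleep fragmented arrays lay within a narrow range, well under the lowest control, and control replicate 2 was again the highest. The means were 3.11 ± 0.119 and 6.10 ± 1.16 (SD, n = 3 each). The log2 fold change was -0.96 ± 0.19 (SE; 95% interval -1.40 to -0.52; limma adjusted p = 0.938).

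The recorded barcode numbers each held 1 array per group, but what such a number stands for on the slides is unclear. Within the barcode numbers Irf9 differed by -0.94, -1.20 and -1.12 and Stat2 by -0.75, -1.21 and -0.92 on the log2 scale. With that number as a block the limma adjusted p was 0.240 for Irf9 and 0.352 for Stat2. Both genes passed only with array weights, which weigh down noisy arrays (log2 fold change -0.92, adjusted p = 0.0436, and -0.83, adjusted p = 0.0438). That fit rested largely on 1 array per group, control replicate 1 (weight 5.81) and sleep fragmented replicate 3 (3.10), with weights of 0.345 to 0.586 for the other 4.

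Control replicate 2, the array highest in both genes, was also the highest in 3 of 5 measured neutrophil markers and 4 of 6 measured markers of B and T lymphocytes. The others did not follow: Cxcr2, Mmp8 and Cd3e were lowest there, at 0.202, 0.114 and 0.736 times the 75th percentile, and Cd79a lay between other arrays. The summed signal of the neutrophil list (5 of 6 genes measured) was 5.12 times the 75th percentile there, of which S100a9 gave 3.28, against 0.970 to 2.33 on the other controls and 1.11 to 1.94 on the sleep fragmented arrays. The lymphocyte list (6 of 8 measured) summed to 6.47 there, mainly from Cd2 (2.70) and Cd79b (1.99), against 1.69 and 1.79 on the other controls and 1.85 to 2.32 on the sleep fragmented arrays. Without control replicate 2 the log2 fold change was -0.92 for Irf9 and -0.81 for Stat2, and both still met the descriptive rule. The macrophage and monocyte list (7 of 10 measured) summed to 12.6 to 23.6 on the sleep fragmented arrays and 13.2 to 17.7 on the controls. The plasmacytoid dendritic cell list, a cell type known for making interferon, summed to 26.9 to 31.5 and 25.6 to 31.3 (5 of 6 measured; Spib was not above background). Within it Bst2, which is itself induced by interferon, was the 1 gene that met the descriptive rule as lower (-0.72 ± 0.27, SE). The signal of Bst2 was 1.23 to 3.17 times the 75th percentile, so most of each sum came from the other genes of the list. In whole tissue fewer cells of a type and less RNA per cell cannot be told apart.

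All 8 ventricular muscle markers were well above background on all arrays, and 0 met the descriptive rule. Atrial markers (4 of 5 measured) ranged widely within each group, with sums of 32.7 to 298 on sleep fragmented arrays and 15.5 to 214 on controls. All 4 had a positive log2 fold change (median 0.55), 0 met the rule, and the sums of the groups overlapped. The sum was higher on the sleep fragmented array of each replicate number, but the labels state no pairing by that number. The fibroblast markers were positive in 6 of 6 genes (median 0.46), with 0 meeting the rule and overlapping sums of 92.4 to 156 and 94.0 to 104. The sums of the erythroid markers (5 of 6 measured) did not overlap, at 166 to 403 against 107 to 122, and 4 of the 5 met the descriptive rule as higher. The part of these cell types in the difference of Irf9 and Stat2 was not tested.

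The receptor chains had no difference beyond the spread of the arrays. Ifnar2, the chain that binds interferon most tightly, gave 2.75, 3.05 and 2.32 times the 75th percentile on the sleep fragmented arrays and 2.74, 3.32 and 2.76 times on the controls. Its log2 fold change was -0.12 ± 0.19 (SE; 95% interval -0.55 to 0.31; limma adjusted p = 0.944). Ifnar1, the chain that pairs with Tyk2, gave 0.547, 0.787 and 0.600 times against 0.688, 0.773 and 0.540 times by its brightest probe. The groups overlapped for both chains.

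Ifnar1 had 3 probes, all annotated to the same transcript. The brightest had a log2 fold change of -0.05 ± 0.22 and the second, dimmer one 0.14 ± 0.19 (SE), so the sign differed between them, and neither passed (limma adjusted p = 0.974 and adjusted p = 0.943). The third was not well above background on any array and was not tested. The 95% interval of the brightest probe ran from -0.55 to 0.45, which includes a signal ratio as low as 0.684. Ifnar2, Il10rb, Ifnar1 and Ifngr2 lie next to each other in that order on chromosome 16, and their log2 fold changes were -0.12, -0.06, -0.05 and 0.04.

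Neither kinase met the descriptive rule. Jak1, which serves many cytokine receptors as well, gave 3.39, 3.37 and 3.33 times the 75th percentile on the sleep fragmented arrays and 3.16, 4.08 and 3.41 times on the controls, with overlap. Its log2 fold change was -0.07 ± 0.18 (SE; 95% interval -0.48 to 0.34; limma adjusted p = 0.960). Tyk2 was a dim probe, at the 8.11th percentile of mean signal among the genes measured. It gave 0.215, 0.178 and 0.186 times the 75th percentile on the sleep fragmented arrays and 0.177, 0.115 and 0.176 times on the controls.

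For Tyk2 the 3 sleep fragmented arrays were all above the 3 controls, by a small margin over control replicates 1 and 3. The same was true of 3.65% of all genes, and 3.97% had all sleep fragmented arrays lower. The log2 fold change of Tyk2 was 0.33 ± 0.22 (SE; 95% interval -0.17 to 0.83; limma adjusted p = 0.938). It was 0.12 without control replicate 2 and 0.09 with quantile normalization. Dim probes as a class stood higher in the sleep fragmented group: the median log2 value of the 14208 probes left out of the test was 0.35 higher than in controls, and its part in the value of Tyk2 was not tested.

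Irf7, the factor that amplifies interferon production and itself responds strongly to interferon, had no difference beyond its wide spread within the groups. Its signal was 0.198, 0.127 and 0.155 times the 75th percentile on the sleep fragmented arrays and 0.134, 0.121 and 0.229 times on the controls. The highest and lowest arrays were both controls, replicates 3 and 2. The log2 fold change was 0.02 ± 0.28 (SE; limma adjusted p = 0.990), and its 95% interval, -0.61 to 0.65, was the widest of the 9. The probe was the dimmest of the 9, at the 5.22th percentile of mean signal, though flagged well above background on all 6 arrays. Its sign turned with the scaling, to -0.24 with quantile normalization and -0.19 with median scaling.

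Irf3, which is made constitutively and activated by phosphorylation, was bright, with little spread. It gave 5.69, 6.65 and 5.81 times the 75th percentile on the sleep fragmented arrays and 5.72, 6.01 and 5.63 times on the controls, and the groups overlapped. Its log2 fold change was 0.06 ± 0.17 (SE; 95% interval -0.33 to 0.45; limma adjusted p = 0.963), and it was -0.15 with median scaling.

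Irf1 was lower on average in the sleep fragmented hearts by an amount within the spread. It gave 5.96, 6.19 and 5.62 times the 75th percentile on the sleep fragmented arrays and 8.04, 7.55 and 6.06 times on the controls. Control replicates 1 and 2 lay above all sleep fragmented arrays, and control replicate 3 lay among them. The log2 fold change was -0.28 ± 0.19 (SE; 95% interval -0.70 to 0.14; limma adjusted p = 0.938), and it was negative in each of the 16 other settings, between -0.49 and -0.19. A second Irf1 probe, for another transcript, was well above background on 2 of 3 arrays in each group and was not tested. Its signal was highest on control replicate 3 and sleep fragmented replicate 1, the same arrays as for Irf7.

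**Figure D2:**
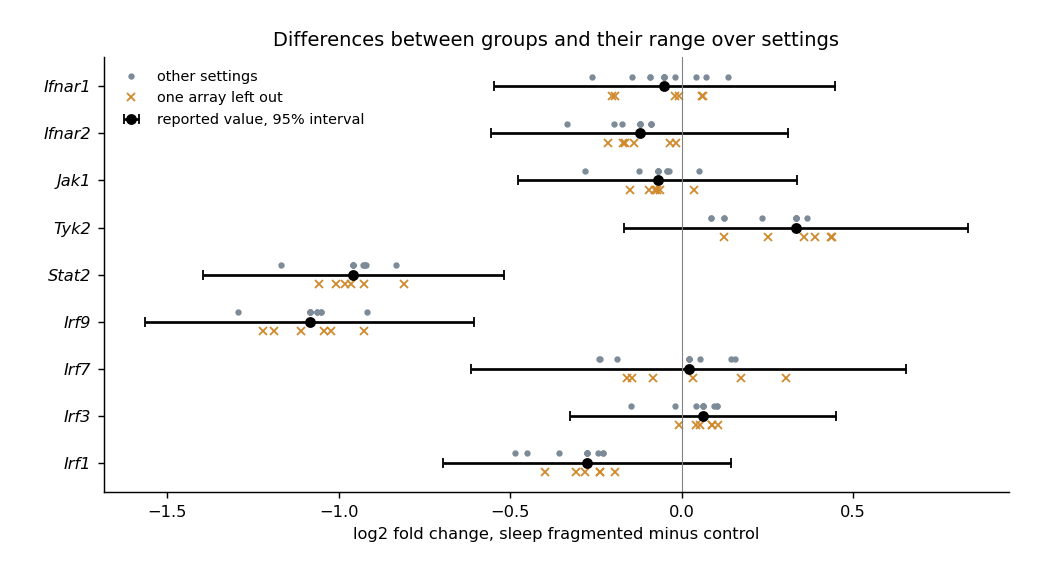
Log2 fold change of the 9 genes (horizontal axis, sleep fragmented minus control), with black points and bars for the reported value and its 95% interval, grey points for the other settings and orange crosses for fits with 1 array left out. The intervals of Stat2 and Irf9 lie below 0 with all their other values, and the other 7 intervals include 0.

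Whether the genes differed from each other in their change was tested for 8 pairs on the difference of their log2 values within each array, a quantity that a constant added to all log2 values of an array leaves as it is. Quantile normalization, which is no such constant, moved Irf9 relative to Irf7 from -1.10 to -0.82, Stat2 relative to Tyk2 from -1.29 to -1.01 and Ifnar2 relative to Ifnar1 from -0.07 to 0.0034. With 3 arrays against 3 the smallest two-sided exact permutation p is 0.1, so no pair can reach 0.05. Stat2 relative to Jak1 was the most uniform: the difference was -0.89 ± 0.05 (SE, n = 3 per group), with -0.16 to -0.07 on the sleep fragmented arrays and 0.72 to 0.86 on the controls. The groups did not overlap, which gives the smallest exact permutation p of 0.1 (0.2 adjusted over the 8 pairs). The same held for Irf9 relative to Irf3 (-1.15 ± 0.15), for Irf9 relative to Irf1 (-0.81 ± 0.23) and for Stat2 relative to Tyk2 (-1.29 ± 0.37).

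For Irf9 relative to Irf7 the difference was -1.10 ± 0.47 and the groups overlapped (exact permutation p = 0.2, adjusted 0.32). With quantile normalization, with normexp and in the authors' log2 values the exact permutation p of this pair was 0.1, the smallest possible. Irf9 relative to Stat2 gave -0.13 ± 0.09 with overlap (exact permutation p = 0.3, adjusted 0.4). Ifnar2 relative to Ifnar1 (-0.07 ± 0.16, p = 0.5) and Irf7 relative to Irf3 (-0.04 ± 0.40, p = 0.9) also overlapped by the same exact permutation test. With normexp Ifnar2 relative to Ifnar1 was -0.27 (exact permutation p = 0.1), but it was 0.0034 with quantile normalization and 0.0031 in the authors' log2 values.

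By pattern over the 6 arrays Stat2 was the gene nearest to Irf9, and Irf9 was the second nearest to Stat2, after Parp14. Of the other genes among the 5 nearest to either, Gbp3 and Parp14 are in the lists of interferon targets used here. Likeness was the root mean square difference between log2 values centred on each gene's own mean, over genes with a value on all 6 arrays. There were 14533 such genes, and those with clone or predicted names (Gm, LOC or Rik names) were left out before ranking. For Irf9 the nearest gene was Stat2 (0.11), followed by the GTPase gene Gbp3 (0.12), Trim34a (0.14), Phf11d (0.15) and the ADP-ribosyltransferase family gene Parp14 (0.16). For Stat2 they were Parp14 (0.09), Irf9 (0.11), Lyrm1 (0.12), Trim30d (0.13) and Apol10b (0.13), of which Lyrm1 was a dim probe at the 3.08th percentile of signal. Genes with the same difference between groups rank high by this measure, so the ranking is a description. Of the other 7 genes described here, Irf1 was the nearest to both, at ranks 695 and 527, and Tyk2 the farthest, at 11512 and 11454.

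The pattern of Irf7 was a different one, high on control replicate 3 and sleep fragmented replicate 1. The nearest genes were Rpia (0.05), an enzyme of the pentose phosphate pathway, Actl7a (0.06), an actin-like gene of male germ cells, the potassium channel gene Kcnh6 (0.06), Xlr4a (0.07) and Mrgpra3 (0.07), a receptor gene of sensory neurons. None of them is in the interferon lists used here, and their log2 fold changes lay between 0.01 and 0.09. Of these 5, 3 were at or below the 9.40th percentile of signal.

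**Figure D3:**
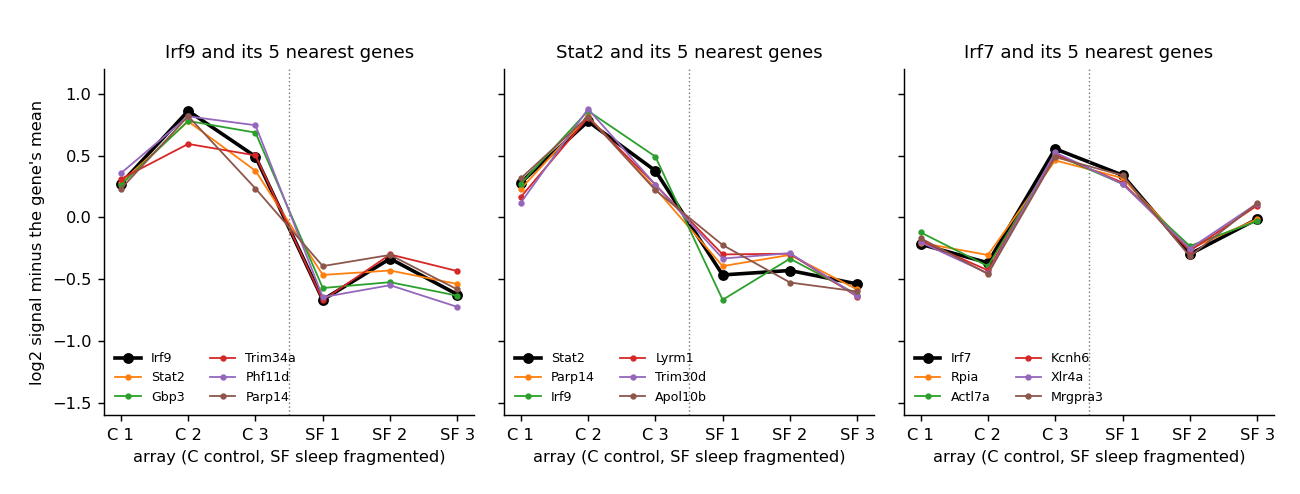
Log2 signal on each array minus the gene's mean over the 6 arrays (vertical axis) for Irf9, Stat2 and Irf7 in black and the 5 genes nearest to each in colour; C marks control and SF sleep fragmented arrays, and lines join the values of a gene. Irf9, Stat2 and their nearest genes are above 0 on all controls and below 0 on all sleep fragmented arrays, while Irf7 and its nearest genes are highest on control replicate 3.

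Other parts of the pathway were read from lists, by count and median beside those of all 14550 genes, whose median log2 fold change was 0.05 and of which 41.3% were negative. Of the 8 other cytokine receptor chains listed, 0 met the descriptive rule in either direction, with a median of -0.01. The smallest p was that of Ifnlr1, a chain of the interferon lambda receptor (-0.54 ± 0.29), which was well above background on 2 of 3 sleep fragmented arrays and entered the test through the control group, where it was higher. Without it, among probes above background on all arrays, the median of the 7 left was 0.04. Next by p were Il10ra (0.18 ± 0.23), Lifr (0.18 ± 0.25) and Osmr (-0.11 ± 0.23). The interferon gamma receptor genes Ifngr1 and Ifngr2 stood at 0.07 ± 0.20 and 0.04 ± 0.22 (SE).

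Of the 6 other Janus kinase and STAT genes measured 0 met the rule, with a median of 0.01, and Stat4 was not above background. Stat6, which responds to interleukin 4, had 0.14 ± 0.17 with every sleep fragmented array higher, as in 3.65% of all genes. Jak2 had -0.15 ± 0.18, Jak3 0.19 ± 0.27 and Stat3 -0.04 ± 0.19 (SE). Of the 4 other IRF genes measured 0 met the rule, with a median of 0.10. Irf2, which competes with Irf1 for the same element, had 0.32 ± 0.17, also with every sleep fragmented array higher (3.65% of all genes). Irf5 had 0.27 ± 0.22 and Irf8 -0.22 ± 0.32 (SE), and Irf4 was above background on 1 array and was not tested.

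Among 14 measured negative regulators of interferon signalling 1 met the rule, Usp18, and the median was -0.07. Usp18, the protease that also blocks Jak1 from docking on Ifnar2, is itself induced by interferon, so it is in the list of targets too. Its log2 fold change was -1.70 ± 0.25 (SE), with every control array higher, as in 3.97% of all genes. Ptpn2 (-0.30 ± 0.20), Irf2bp2 (0.41 ± 0.27) and Irf2bp1 (0.38 ± 0.31; above background on 2 of 3 sleep fragmented arrays) followed by p, and Socs3, a feedback inhibitor of Janus kinases, stood at -0.09 ± 0.21. Socs1 was not above background on every array of either group. The median of this list was above 0 in 2 of the 16 other settings.

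The adaptors and kinases that activate Irf3 and Irf7 had 0 of 12 measured genes meeting the rule and a median of -0.10. Ikbke (0.29 ± 0.17) and Ticam1 (0.33 ± 0.23) were positive, and Tank (-0.44 ± 0.26) and the mitochondrial adaptor Mavs (-0.29 ± 0.19) were negative. Tank and Ikbke were above background on 2 of 3 sleep fragmented arrays and entered through the control group. Tbk1, the kinase that phosphorylates Irf3, stood at -0.03 ± 0.18 (SE).

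Interferon genes themselves gave little to read. Ifnb1, Ifna4 and Ifne were not above background on any array, and Ifng and Ifnk on 1 array each. The 10 ligand genes that passed the filter had signals between the 9.74th and 49.99th percentile. Of these, 0 met the rule and 9 were positive, with a median of 0.18. The median was negative in 2 of the 16 other settings (-0.09 without control replicate 2), and dim probes as a class had the same positive direction. The smallest p values were those of Ifna12 (0.32 ± 0.23), Ifnl3 (0.23 ± 0.21), Ifnab (0.20 ± 0.20) and Ifna14 (0.21 ± 0.23). The alpha interferon genes are so alike in sequence that a probe for 1 may also read others, and their separate values are uncertain.

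Downstream, 20 of 31 measured genes of the list driven by the ISRE met the rule as lower and 0 as higher, with a median of -0.81. The smallest p values were those of Usp18, Rtp4 (-1.36 ± 0.23), Oasl1 (-1.52 ± 0.26) and Oas2 (-1.33 ± 0.24). With an array left out the count lay between 16 and 24. Among the 20 genes, Eif2ak2 (-0.89 ± 0.23) was above background on 2 of 3 sleep fragmented arrays and entered through the control group. When a probe had to exceed background on every array, 19 of 30 genes of this list were lower by the rule, with a median of -0.80. Among all 14550 genes tested 0.729% met the rule as lower. Of the 22 measured targets of Irf1 and interferon gamma 5 were lower by the rule and 0 higher, with a median of -0.29. They were led by Gbp3 (-1.15 ± 0.20), Irgm1 (-0.76 ± 0.22), Gbp6 (-1.05 ± 0.34) and Cd274 (-0.64 ± 0.21), the gene of the immune checkpoint ligand PD-L1. The count was 8 with median scaling and 3 with normexp or array weights. Without control replicate 2, the array high in 4 of 6 lymphocyte markers, it was also 3 and the median was -0.10. Lists on these themes were chosen with earlier results on these arrays known and are no independent evidence of direction.

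The ISRE core was found in 13 of 26 promoter windows of the ISRE-driven list. It was also in 9 of 20 windows of the Irf1 and interferon gamma list, against 3.44% of all windows. Neither of the 2 Irf9 windows held it. The ISRE-driven list was chosen for this element, so its share is a description and no independent evidence.

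**Figure D4:**
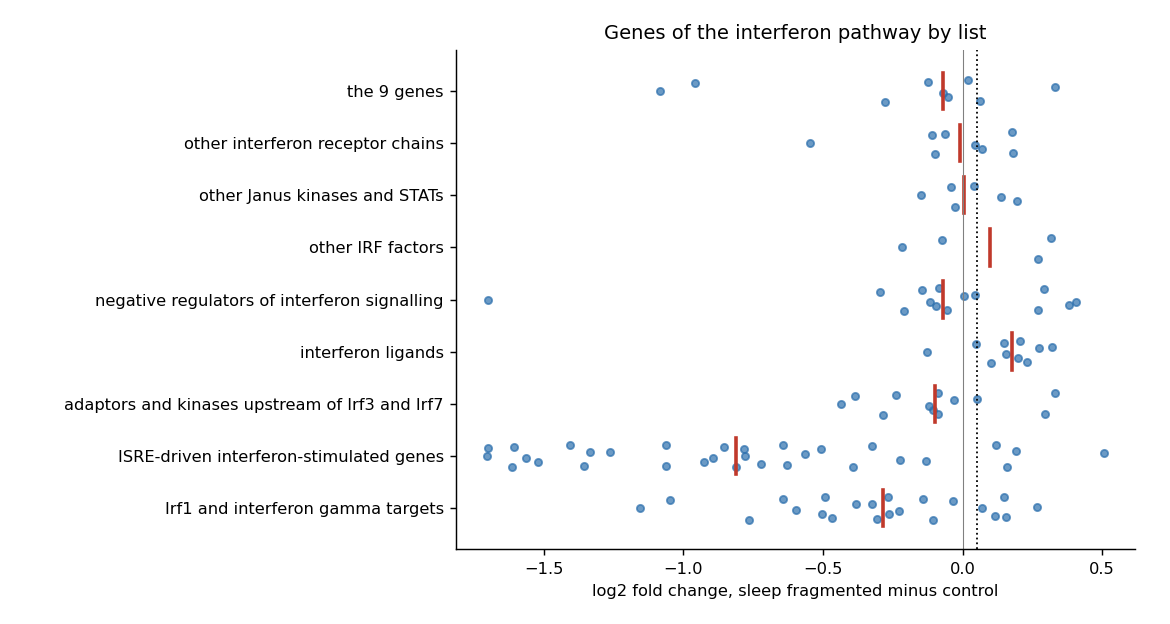
Log2 fold change (horizontal axis, sleep fragmented minus control) of each measured gene, 1 point per gene, for the 9 genes and 8 lists of the interferon pathway; red bars are list medians and the dotted line is the median of all genes, 0.05. The ISRE-driven list has a median of -0.81, while the medians of receptors, kinases, IRF factors, regulators and adaptors lie between -0.10 and 0.10.

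Measured genes nearest to Irf9 and Stat2 on their chromosomes were not lower by the descriptive rule. Psme2 and Rnf31 before Irf9 stood at -0.16 ± 0.18 and 0.17 ± 0.19, and Rec8 and Ipo4 after it at 0.09 ± 0.22 and 0.14 ± 0.21 (SE). Near Stat2, Apof, an apolipoprotein gene, stood at 0.76 ± 0.29 and met the rule as higher, and Pan2 stood at -0.29 ± 0.22. For these 6 neighbours the arrays of the groups overlapped.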

How the data were processed

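Total RNA of mouse ventricles was measured on 6 arrays, 3 per group, with groups taken from the end of the titles. Per the file headers, the deposited intensity values (processed spot signals and, for 1 alternative, each spot's median signal and local background, all linear) came from Agilent's Feature Extraction, version 11.0.1.1, for design 026655, built on mm9; the submitters' processing notes name 10.5.1.1. The deposited flags (above background, saturated, outlying) are other values, 0 or 1. The authors also deposited a table of log2 values, with processing not given in the sources used here. Its columns share 1 median, 5.53, as after quantile normalization, and it served as an alternative; whether it was centred otherwise stays unknown.

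Control and outlier spots (180 to 240 per array) were left out, 0 spots were saturated, and log2 signals had the array's 75th percentile subtracted. Well above background were 23332 to 28622 of 39429 probes per array, and the 75th percentile was 123 on sleep fragmented replicate 1 against 204 to 252 elsewhere. Unversioned accessions named 27234 probes (69.1%) through a GRCm38.p6 table. The brightest kept probe stood for a gene. Groups were compared with limma 3.58.1 (lmFit, eBayes, R 4.3.3), two-sided, adjusted over all kept probes at a threshold of 0.05. Files hold no mean spot signal, so normexp (offset 50) used the median.

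The fit was tested on simulated data. With 50 probes changed at each size, 0 passed the adjusted threshold at 1.5-fold, 7 at 2-fold and 42 at 5-fold. Members, lists and tests were chosen with earlier results of these data known. All 9 members were named, with up to 4 genes of smallest p per list, listed direct regulators and the 5 genes nearest in pattern to Irf9, Stat2 and Irf7; neighbours were named by position. The replicate numbers were not taken as pairs in the main fit, because the labels state no pairing. Deviations from the group means correlated at 0.06, 0.55 and 0.21 for same-numbered arrays. For arrays of different number they correlated between -0.50 and 0.36. Whether same-numbered arrays belong together is unknown, and the block fit is given as an alternative. The number of arrays limits the precision. The result of 1 listed gene is not reported here.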

Additional observations from a re-analysis of the deposited data

How the results depend on the processing

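The counts over all probes moved with the processing. The count past the adjusted threshold, 0, became 3 with normexp background correction, 53 with array weights and 4 with the replicate block; with an array left out it was 0 to 0. The count under the descriptive rule, 486, became 178 with normexp, 1413 with no filter on dim probes, 1265 with array weights and 848 with the replicate block, and 408 to 2710 with an array left out (1095 without sleep fragmented replicate 2, 2710 without control replicate 3). Of the 486, 317 were higher; with quantile normalization 92 of 379, with median scaling 92 of 666 and from the authors' values 94 of 378. In these 3 settings the median over all probes, 0.08, became 0.0023, -0.13 and 0.0026. Irf9 and Stat2 were the member genes that met this rule in all 17 settings. The replicate block, for arrays that share a replicate number and a barcode number, changed no member's call.

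Signs near 0 turned. Ifnar1 was 0.0719 with normexp, 0.0426 as the mean of its kept probes, 0.14 by its second probe and -0.20 to 0.0634 with an array left out. Jak1 was 0.0515 with array weights and -0.15 to 0.0348 with an array left out. Irf7 was -0.24 with quantile normalization and in the authors' table (-0.24), -0.19 with median scaling and -0.16 to 0.30 with an array left out. Irf3 was -0.15 with median scaling, -0.0199 with normexp and -0.0077 to 0.10 with an array left out. Ifnar2 relative to Ifnar1 was 0.0034 with quantile normalization, 0.0031 in the authors' table and -0.1972 to 0.0305 with an array left out. Irf7 relative to Irf3 was 0.16 with normexp and -0.2502 to 0.26 with an array left out. The cause of these turns was not tested. The ISRE core followed by C was also found in 1 member window. The barcode number equals the replicate number, so no separate fit was run. Dim probes (Irf7, Tyk2, the second Irf1 probe) limit what low signal can show.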
